A study of Homo sapiens with 9 samples.

Results

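The genes described here carry cells from G1 into S phase and copy their DNA. The 50 members were listed by name, from origin licensing factors to the histone mRNA-binding protein SLBP, and were matched to the deposited expression table of 16750 genes through the gene symbols of a deposited comparison table. All 50 had a row, and all 50 passed the filter on low values, at least 1 CPM (the reads of a gene per 1000000 reads of the library) in at least 3 of the 9 libraries, which 14554 genes passed. PANC-1 is an established human cell line from an epithelioid carcinoma of the pancreatic duct. Clones of it were transduced with lentiviral plasmids carrying SLC22A10 (SLC22A10_OE, 3 libraries), SLC22A15 (SLC22A15_OE, 3 libraries) or no insert (vector, 3 libraries). SLC22A10 and SLC22A15 belong to a family of organic ion transporters of the plasma membrane. Each of the 3 groups went through lentiviral infection and puromycin selection, and was then kept in puromycin. Total RNA was depleted of ribosomal RNA and sequenced from strand-specific libraries. The sources used here do not give the number of clones behind a line, the promoter of the insert, or whether a line's libraries came from separate cultures. The p-values therefore reflect how much the libraries of a group differ, and that spread may be technical.

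A cell marks each replication origin in G1. The origin recognition complex with CDC6 and CDT1 loads the MCM2-7 helicase ring, and geminin (GMNN) holds CDT1 back once S phase has begun. The kinase CDC7 with its activator DBF4, and CDK2 with the E-type cyclins, then recruit CDC45 and the GINS complex, which turn the ring into a working helicase for the DNA polymerases behind it. Many of these genes are transcribed in late G1 by E2F factors, which the retinoblastoma protein and its relatives p107 and p130 restrain.

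Library totals ran from 28351741 to 42942234 reads, and each member had at least 314 reads in each library. SLC22A10 stood at 80.5 to 91.4 CPM in SLC22A10_OE and at no more than 0.0281 CPM in the other libraries. SLC22A15 stood at 73.3 to 78.3 CPM in SLC22A15_OE, 5.46 to 6.52 CPM in vector and 3.44 to 4.12 CPM in SLC22A10_OE. Among markers of pancreatic duct cells, KRT8, KRT18, KRT19 and SOX9 were expressed, and KRT7 averaged at most 0.449 CPM in any group. Those 5 of the 7 listed duct markers summed to 532 to 593 CPM in SLC22A10_OE, 287 to 321 CPM in SLC22A15_OE and 436 to 475 CPM in vector. They did not move together. From vector to SLC22A10_OE, KRT19 (mean 73.2 to 216 CPM) and SOX9 (127 to 156 CPM) averaged higher. KRT18 (162 to 99.2 CPM), KRT7 (0.449 to 0.183 CPM) and KRT8 (91.4 to 88.9 CPM) averaged lower. In SLC22A15_OE each of them averaged below vector. Of other cell types few listed markers had a row in the table. CTRB1, the 1 of 6 acinar markers, read at most 0.699 CPM in any library. COL1A1, the 1 of 5 fibroblast markers, read 4.24 to 5.43 CPM in SLC22A10_OE, 0.299 to 0.603 CPM in SLC22A15_OE and 0.398 to 0.677 CPM in vector. CDH5, the 1 of 4 endothelial markers, read 6.24 to 7.65 CPM in SLC22A10_OE, 2.52 to 2.86 CPM in SLC22A15_OE and 0.901 to 1.45 CPM in vector. CD14 and CD68, the 2 of 5 leukocyte markers, summed to 31.0 to 33.7 CPM in SLC22A10_OE, 21.0 to 21.4 CPM in SLC22A15_OE and 16.1 to 19.7 CPM in vector. The part of these differences in the results below was not tested. In 1 library of each group, SLC22A10_OE library 3, SLC22A15_OE library 1 and vector library 1, mitochondrial ribosomal RNA took 0.00958% to 0.0151% of the reads, against 0.0454% to 0.0843% in the others. Some members moved with that split inside every group. In the library with little mitochondrial ribosomal RNA, CDT1 stood above the mean of its partners by 0.16 in SLC22A10_OE, 0.23 in SLC22A15_OE and 0.36 in vector on the log2(CPM + 1) scale, and PCNA stood below it (-0.13, -0.20 and -0.32). Over the 50 members the median of that difference was -0.00893 in SLC22A10_OE, -0.00288 in SLC22A15_OE and -0.00271 in vector.

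SLC22A10_OE held less of most replication transcripts than vector did. Of the 50 members, 35 fell, 3 rose and 12 did not pass the test, where 32.5% of all genes tested fell and 34.7% rose. The test was limma on log2(CPM + 1) over all 14554 genes, with a Benjamini-Hochberg adjusted p under 0.05 as the threshold for a call. The median log2 fold change of the members was -0.32, beside 0.00 over all genes tested. It was -0.32 between the libraries with little mitochondrial ribosomal RNA and -0.33 between the others. In bulk RNA, fewer cells in S phase and less of these transcripts per cell cannot be told apart. Summed over the 50 members, the level was 4997, 5072 and 5050.3 CPM in SLC22A10_OE against 6346, 6256 and 6282 CPM in vector, with all 3 SLC22A10_OE libraries below all vector libraries. In 39 of the 50 the groups did not overlap, 36 lower and 3 higher in SLC22A10_OE, where 33.8% of all genes did so lower and 35.4% higher. Centring each library on its median moved all fold changes of this comparison by -0.12, which turned the split of all genes from 5047 higher and 4728 lower to 3875 higher and 6233 lower. The members then stood at 40 lower and 1 higher, where 42.8% of all genes were lower and 26.6% higher.

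Few members passed the test in SLC22A15_OE against vector. Of the 50 members, 6 rose, 1 fell and 43 did not pass, where 10.8% of all genes tested rose and 9.58% fell. Their median log2 fold change was 0.08, beside 0.01 over all genes. The summed level was 6666, 6606 and 6591 CPM in SLC22A15_OE against 6346, 6256 and 6282 CPM in vector. Each SLC22A15_OE library summed higher than each vector library, and the mean was 105% of the vector mean. In 18 members the groups did not overlap with SLC22A15_OE higher and in 3 with it lower, where 18.1% of all genes did so higher and 16.6% lower.

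**Figure D1:**
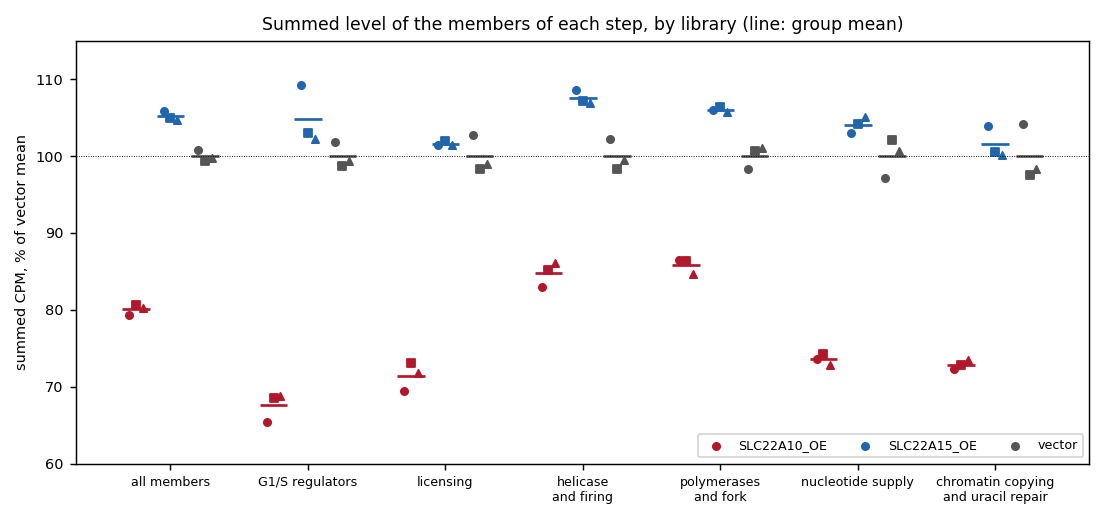
Summed CPM of the members of each step in each library, as a percentage of the vector mean (vertical axis, which starts at 60%). Circles, squares and triangles are libraries 1, 2 and 3, and short lines are group means. The 3 SLC22A10_OE libraries lie below all vector libraries in each step, at a group mean of 67.6% (G1/S regulators) to 85.9% (polymerases and fork), while the SLC22A15_OE means lie between 102% and 108%.

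The lines were also compared with each other. Differences between clones and effects of the inserts cannot be told apart in any of these comparisons. In SLC22A15_OE 40 of the 50 members were higher than in SLC22A10_OE, 1 was lower and 9 did not pass, where 30.8% of all genes tested were higher and 32.1% lower. The median log2 fold change was 0.43, beside -0.00205 over all genes. In 41 members all SLC22A15_OE libraries lay above all SLC22A10_OE libraries and in 2 below, where 33.3% and 34.2% of all genes did so. This comparison shares its SLC22A10_OE libraries, and the one before it its vector libraries, with the first, so their values are given side by side.

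**Figure D2:**
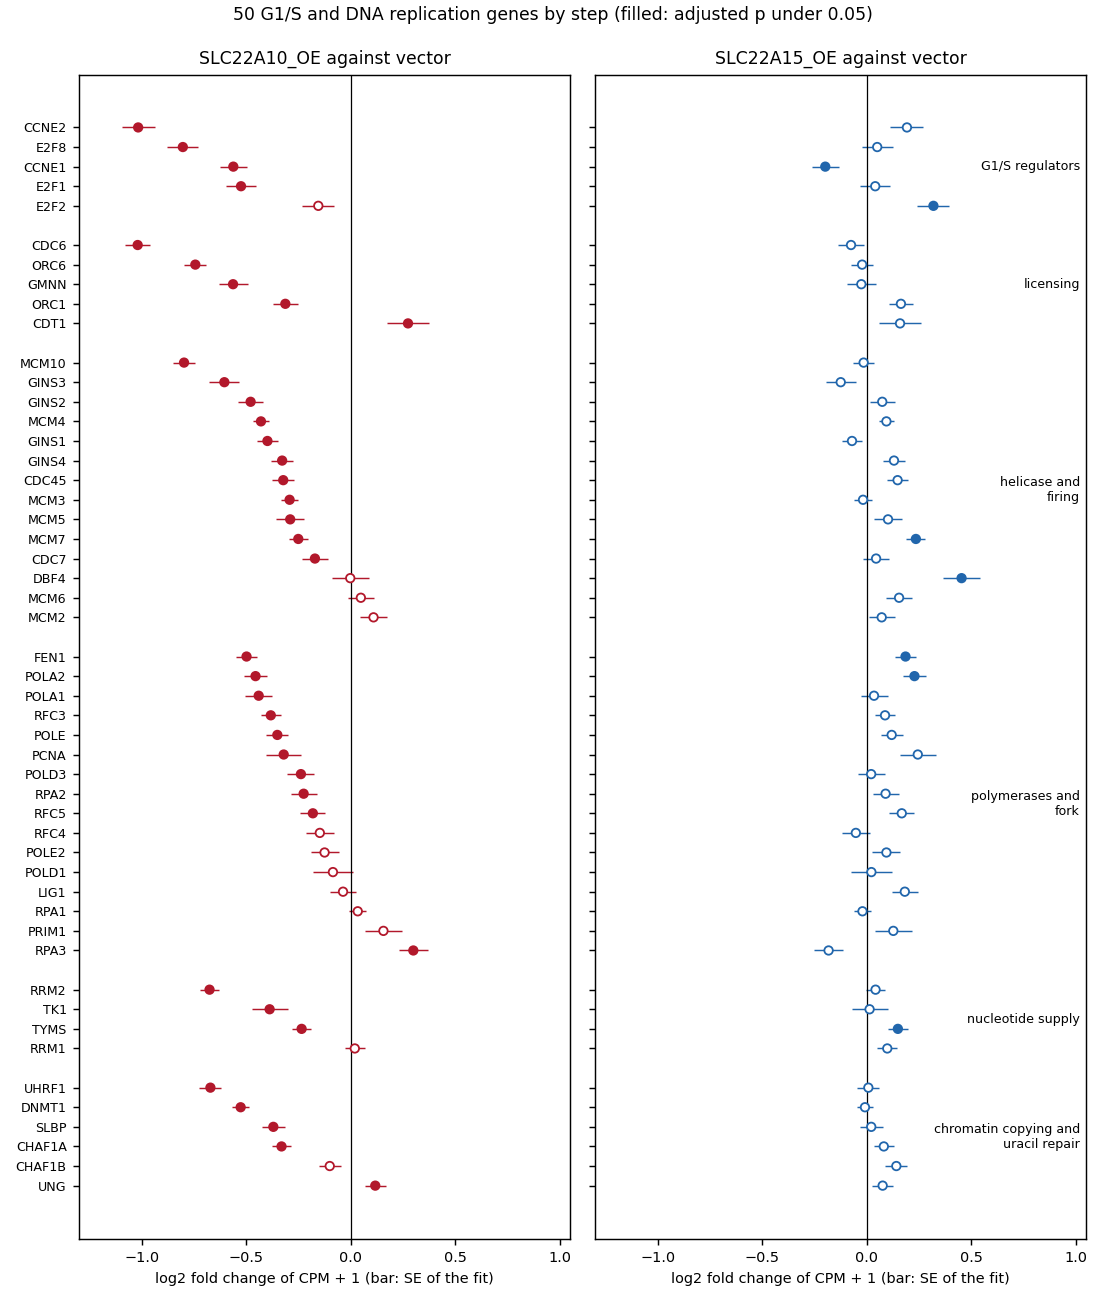
Log2 fold change of CPM + 1 for each of the 50 members (rows, grouped by step and ordered by SLC22A10_OE), SLC22A10_OE against vector on the left and SLC22A15_OE against vector on the right. Bars are standard errors of the fit and filled points passed an adjusted p of 0.05. On the left most points lie below 0, down to -1.02 for CDC6 and CCNE2, and on the right most lie near 0, from -0.20 for CCNE1 to 0.45 for DBF4.

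Promoters of the members often held an E2F motif. Promoter windows (250 bases before to 50 after the transcription start, RefSeq, GRCh38.p14) were matched for 42 of the 50 members. The letters TTTCCCGC, TTTCGCGC, TTTGCCGC or TTTGGCGC, on either strand, were found in 21 of the 42 members, beside 594 of 11161 windows (5.32%) of all genes tested with a window. Of the members that fell in SLC22A10_OE, 15 of 28 with a window held such a match, and of those that did not pass, 5 of 12. The cell cycle homology motif TTTGAA, of genes transcribed later in the cycle, was in 2 of the 42 (4.76%) and in 9.83% of the windows of all genes tested. Those 2, DBF4 and RRM1, held no E2F match, so the motifs overlapped in no member. The 4 windows below belong to the members with an E2F match whose adjusted p against vector was smallest. They are printed 5′ to 3′ along the gene's strand, with the match in capitals.
CDC6 (chr17:40287629-40287928, plus strand): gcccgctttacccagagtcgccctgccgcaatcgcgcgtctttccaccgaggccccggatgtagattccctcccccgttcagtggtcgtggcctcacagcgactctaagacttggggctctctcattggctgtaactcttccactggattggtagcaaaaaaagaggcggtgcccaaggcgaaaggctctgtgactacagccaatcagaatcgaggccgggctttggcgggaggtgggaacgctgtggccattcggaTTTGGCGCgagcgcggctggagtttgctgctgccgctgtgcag
DNMT1 (chr19:10194904-10195203, minus strand): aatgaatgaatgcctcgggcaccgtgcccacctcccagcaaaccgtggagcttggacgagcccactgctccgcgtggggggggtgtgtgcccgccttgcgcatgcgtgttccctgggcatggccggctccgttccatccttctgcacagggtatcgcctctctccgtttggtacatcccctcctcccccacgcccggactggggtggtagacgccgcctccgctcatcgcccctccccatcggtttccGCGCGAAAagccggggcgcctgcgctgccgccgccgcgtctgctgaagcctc
UHRF1 (chr19:4909251-4909550, plus strand): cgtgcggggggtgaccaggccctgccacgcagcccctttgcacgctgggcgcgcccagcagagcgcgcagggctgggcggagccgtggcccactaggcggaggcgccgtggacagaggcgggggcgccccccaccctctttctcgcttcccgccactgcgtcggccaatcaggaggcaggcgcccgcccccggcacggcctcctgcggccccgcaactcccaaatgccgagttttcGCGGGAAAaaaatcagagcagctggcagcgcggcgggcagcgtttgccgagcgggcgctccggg
GINS3 (chr16:58392221-58392520, plus strand): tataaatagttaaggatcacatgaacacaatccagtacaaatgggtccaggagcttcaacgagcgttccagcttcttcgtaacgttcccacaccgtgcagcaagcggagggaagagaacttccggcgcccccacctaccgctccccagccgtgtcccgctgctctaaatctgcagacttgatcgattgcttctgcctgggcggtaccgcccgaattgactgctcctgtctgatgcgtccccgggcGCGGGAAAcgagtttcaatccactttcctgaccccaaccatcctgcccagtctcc
The match lies next to the transcription start in each. In CDC6 it begins 8 bases into the transcript, counting the start as 1, and in DNMT1, GINS3 and UHRF1 its first base is 2, 5 and 14 bases before the start. CDC6 reads TTTGGCGC on the printed strand. The other 3 hold the motif on the opposite strand, TTTCGCGC in DNMT1 and TTTCCCGC in UHRF1 and GINS3. A match of letters is a description and not a bound site.

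Among the regulators of the G1/S switch, 4 of 5 fell in SLC22A10_OE. Of all genes tested 32.5% fell and 34.7% rose there, the shares for each step below as well. E2F1, the E2F activator of the G1/S genes, stood at 49.4, 51.5 and 54.5 CPM in SLC22A10_OE, 84.4, 75.4 and 71.8 CPM in SLC22A15_OE, and 81.3, 72.7 and 71.1 CPM in vector. All 3 SLC22A10_OE libraries lay below the others (log2 fold change -0.53, SE 0.07, limma, Benjamini-Hochberg adjusted p = 2.48e-05), and SLC22A15_OE overlapped vector (0.04). E2F8, an atypical E2F that represses the same genes late in S phase, read 12.0, 13.7 and 12.1 CPM in SLC22A10_OE, 22.9, 23.9 and 23.9 CPM in SLC22A15_OE, and 21.7, 22.4 and 24.1 CPM in vector. It fell in SLC22A10_OE too (log2 fold change -0.80, SE 0.07, limma, Benjamini-Hochberg adjusted p = 8.28e-07). CCNE2, a cyclin E gene that partners CDK2, held 12.0, 11.7 and 11.3 CPM in SLC22A10_OE, 26.8, 27.8 and 30.2 CPM in SLC22A15_OE, and 22.2, 26.5 and 25.3 CPM in vector. It was the lowest of the step against vector (log2 fold change -1.02, SE 0.08, limma, Benjamini-Hochberg adjusted p = 1.61e-07), while SLC22A15_OE did not pass (log2 fold change 0.19, SE 0.08). CCNE1, the other cyclin E gene, had 27.0, 27.9 and 26.2 CPM in SLC22A10_OE, 35.5, 34.6 and 35.1 CPM in SLC22A15_OE, and 38.4, 39.2 and 43.8 CPM in vector. It fell in both lines, by 0.56 on the log2 scale in SLC22A10_OE (limma, Benjamini-Hochberg adjusted p = 5.20e-06) and by 0.20 in SLC22A15_OE (limma, Benjamini-Hochberg adjusted p = 0.0423). The SLC22A15_OE call was lost when any 1 of 7 libraries was left out, SLC22A10_OE library 1 or 2, any SLC22A15_OE library, or vector library 2 or 3 (adjusted p up to 0.208). That call was also lost in the fit of only SLC22A15_OE and vector, and with library number as a replicate block over all 9 libraries. E2F2, another activating E2F, was the riser of the step in SLC22A15_OE, with 27.6, 29.2 and 30.6 CPM in SLC22A10_OE, 44.1, 39.7 and 38.9 CPM in SLC22A15_OE, and 35.6, 32.4 and 29.9 CPM in vector (log2 fold change 0.32, SE 0.08, limma, Benjamini-Hochberg adjusted p = 0.00944). Its SLC22A10_OE libraries overlapped vector (log2 fold change -0.16, SE 0.08), and its SLC22A15_OE call was lost without vector library 3 (adjusted p = 0.0569). In SLC22A10_OE, E2F2 passed as lower with centring, without vector library 3, and with a fitted term for low mitochondrial ribosomal RNA.

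In the licensing step 4 of 5 members fell in SLC22A10_OE and 1 rose. CDC6, the loader of the helicase ring, held 67.4, 71.3 and 61.3 CPM in SLC22A10_OE, 121, 131 and 136 CPM in SLC22A15_OE, and 137, 135 and 136 CPM in vector, so that the SLC22A10_OE mean was 51.0% lower than that of vector (log2 fold change -1.02, SE 0.06, limma, Benjamini-Hochberg adjusted p = 1.31e-08). ORC6, the smallest subunit of the origin recognition complex, held 34.0, 35.9 and 34.8 CPM in SLC22A10_OE, 57.2, 58.8 and 58.6 CPM in SLC22A15_OE, and 56.7, 59.7 and 61.0 CPM in vector. It fell in SLC22A10_OE as well (log2 fold change -0.74, SE 0.05, limma, Benjamini-Hochberg adjusted p = 6.87e-08), and SLC22A15_OE overlapped vector. ORC1, the subunit whose level in human cells is tied to G1, read 42.5, 41.2 and 44.8 CPM in SLC22A10_OE, 63.9, 58.8 and 57.4 CPM in SLC22A15_OE, and 52.1, 55.1 and 53.2 CPM in vector. It fell too (log2 fold change -0.31, SE 0.06, limma, Benjamini-Hochberg adjusted p = 3.90e-04). GMNN, the inhibitor of CDT1, stood at 33.8, 37.8 and 33.3 CPM in SLC22A10_OE, 46.8, 54.2 and 52.7 CPM in SLC22A15_OE, and 52.2, 53.6 and 50.5 CPM in vector (log2 fold change -0.56, SE 0.07, limma, Benjamini-Hochberg adjusted p = 1.11e-05). CDT1 went the other way, with 81.3, 86.4 and 93.7 CPM in SLC22A10_OE, 89.4, 77.8 and 74.3 CPM in SLC22A15_OE, and 85.1, 63.1 and 68.8 CPM in vector. It rose in SLC22A10_OE (log2 fold change 0.27, SE 0.10, limma, Benjamini-Hochberg adjusted p = 0.0266), but the groups overlapped, since vector library 1, with little mitochondrial ribosomal RNA, read above SLC22A10_OE library 1. That call was lost when SLC22A10_OE library 2 or 3 or vector library 2 or 3 was left out (adjusted p up to 0.121), and with centring. With a fitted term for low mitochondrial ribosomal RNA it was kept (limma, Benjamini-Hochberg adjusted p = 1.22e-06). In SLC22A15_OE limma called none of the 5 licensing genes against vector, with 1 at an unadjusted p under 0.05 and 0 called by edgeR or DESeq2 on recovered reads. With the term for low mitochondrial ribosomal RNA, ORC1 (0.16) and CDT1 (0.16) passed as higher in SLC22A15_OE.

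The ratio of CDT1 to its inhibitor followed from these values. CDT1 reads per GMNN read were 2.40, 2.28 and 2.82 in SLC22A10_OE, 1.91, 1.44 and 1.41 in SLC22A15_OE, and 1.63, 1.18 and 1.36 in vector. The means were 2.50 ± 0.279 in SLC22A10_OE and 1.39 ± 0.227 in vector (SD, n = 3 each, log2 difference 0.85, two-sided exact permutation p = 0.1, the smallest that 3 libraries against 3 can give). SLC22A15_OE overlapped vector (two-sided exact permutation p = 0.4). In each group the library with little mitochondrial ribosomal RNA had the highest ratio, and within that set of libraries SLC22A10_OE was still above vector (2.82 against 1.63). The ratio of CCNE1 to CCNE2 was 2.26, 2.38 and 2.32 in SLC22A10_OE, 1.32, 1.24 and 1.16 in SLC22A15_OE, and 1.73, 1.48 and 1.73 in vector. The 3 groups did not overlap, with SLC22A10_OE above vector by 0.50 and SLC22A15_OE at -0.40 against vector on the log2 scale (two-sided exact permutation p = 0.1 each). E2F1 to E2F8 was 4.11, 3.75 and 4.51 in SLC22A10_OE, 3.69, 3.16 and 3.00 in SLC22A15_OE, and 3.75, 3.24 and 2.95 in vector. SLC22A10_OE library 2 and vector library 1 met at 3.75, so the groups only just separated (log2 difference 0.32, two-sided exact permutation p = 0.1). For this ratio too, the library with little mitochondrial ribosomal RNA was the highest of each group. Between those libraries it was 4.51 in SLC22A10_OE against 3.75 in vector. Between the others it was 4.11 and 3.75 against 3.24 and 2.95.

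**Figure D3:**
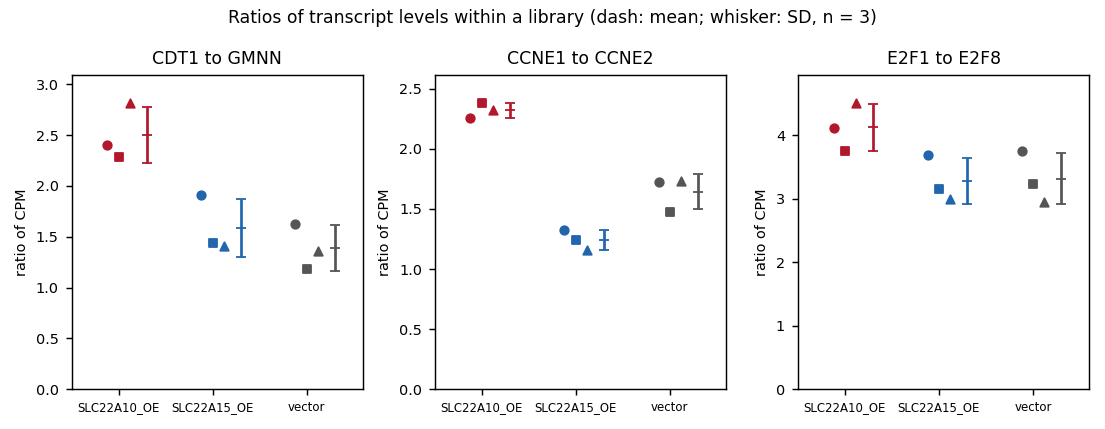
Ratio of CPM within each library (vertical axes from 0) for CDT1 to GMNN, CCNE1 to CCNE2 and E2F1 to E2F8. Circles, squares and triangles are libraries 1, 2 and 3, and dashes with whiskers are means with SD (n = 3). SLC22A10_OE has the highest mean in each panel, and only for CCNE1 to CCNE2 do SLC22A15_OE (1.24 ± 0.0816) and vector (1.65 ± 0.145) separate.

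Of the helicase and the factors that fire it, 11 of 14 fell in SLC22A10_OE and 3 did not pass; the median was -0.31. MCM10, a scaffold that helps the helicase start, had 45.6, 46.0 and 46.2 CPM in SLC22A10_OE, 77.9, 80.6 and 80.9 CPM in SLC22A15_OE, and 77.0, 80.4 and 84.7 CPM in vector (log2 fold change -0.80, SE 0.05, limma, Benjamini-Hochberg adjusted p = 2.57e-08). MCM4, a subunit of the ring encoded on chromosome 8, held 318, 317 and 329 CPM in SLC22A10_OE, 464, 462 and 462 CPM in SLC22A15_OE, and 436, 435 and 429 CPM in vector. The libraries of each group lay close together, and all of SLC22A10_OE was lower (log2 fold change -0.43, SE 0.04, limma, Benjamini-Hochberg adjusted p = 4.56e-07). MCM7, encoded on chromosome 7, stood at 306, 304 and 321 CPM in SLC22A10_OE, 455, 430.4 and 420.5 CPM in SLC22A15_OE, and 384, 359 and 366 CPM in vector. It fell in SLC22A10_OE (log2 fold change -0.25, SE 0.05, limma, Benjamini-Hochberg adjusted p = 3.18e-04) and rose in SLC22A15_OE (log2 fold change 0.23, SE 0.05, limma, Benjamini-Hochberg adjusted p = 0.00249).

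The ring has 6 subunits, and differences between their fold changes were not tested. MCM3, MCM4, MCM5 and MCM7 fell, by 0.25 to 0.43 on the log2 scale, and MCM2 and MCM6, named here after their values were seen, did not pass. MCM2 read 296, 309 and 325 CPM in SLC22A10_OE, 322, 295 and 289.8 CPM in SLC22A15_OE, and 315, 269 and 279.7 CPM in vector, and MCM6 191, 213 and 181 CPM in SLC22A10_OE, 199, 214 and 216 CPM in SLC22A15_OE, and 179, 193 and 193 CPM in vector. In both the SLC22A10_OE libraries overlapped vector (0.11 for MCM2 and 0.05 for MCM6). With a fitted term for low mitochondrial ribosomal RNA, MCM2 passed as higher in SLC22A10_OE. Per kilobase of exon, MCM2 averaged 85.6 ± 4.0 CPM per kb in SLC22A10_OE and 79.5 ± 6.57 in vector (SD, n = 3 each), and MCM4 averaged 74.0 ± 1.55 in SLC22A10_OE and 99.8 ± 0.866 in vector. MCM2 was thus the most abundant ring transcript per length in SLC22A10_OE, with MCM7 beside it at 85.0 ± 2.52, where in vector MCM7 (101 ± 3.59), MCM4 and MCM3 (89.4 ± 2.76) averaged above it. MCM5 was the least abundant in each group, at 24.5 ± 1.53 in SLC22A10_OE, 32.3 ± 1.18 in SLC22A15_OE and 30.1 ± 2.83 in vector. Lengths are unions of annotated exons, and the isoforms in use were not measured.

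**Figure D4:**
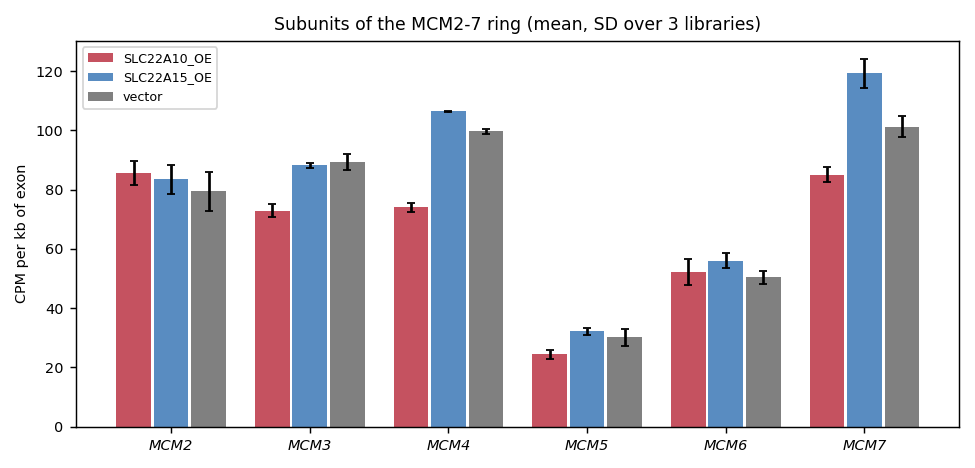
Level of each subunit gene of the MCM2-7 ring in CPM per kilobase of exon (vertical axis from 0), with bars for the mean and whiskers for the SD over 3 libraries of SLC22A10_OE, SLC22A15_OE and vector. MCM3, MCM4, MCM5 and MCM7 are lower in SLC22A10_OE than in vector, and MCM2 (85.6 against 79.5 CPM per kb) and MCM6 (52.2 against 50.4 CPM per kb) overlap.

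The GINS subunits, which join CDC45 and the ring in the active helicase, all fell in SLC22A10_OE. GINS3 had 17.1, 17.9 and 18.7 CPM in SLC22A10_OE, 23.6, 25.8 and 26.7 CPM in SLC22A15_OE, and 29.2, 26.3 and 27.8 CPM in vector (log2 fold change -0.61, SE 0.07, limma, Benjamini-Hochberg adjusted p = 7.94e-06). GINS1, GINS2 and GINS4 fell by 0.40, 0.48 and 0.33, and CDC45 by 0.32. No vector library of these 5 genes overlapped SLC22A10_OE. CDC7, the kinase that fires origins, fell by 0.17 to 33.0 ± 0.128 CPM in SLC22A10_OE, against 37.3 ± 1.24 CPM in vector (SD, n = 3 each), a call lost without SLC22A10_OE library 1, 2 or 3 or vector library 2 or 3 (limma, Benjamini-Hochberg adjusted p up to 0.0846). Its activator DBF4, on chromosome 7, had 49.4, 44.3 and 43.8 CPM in SLC22A10_OE, 55.8, 65.6 and 68.7 CPM in SLC22A15_OE, and 40.6, 49.2 and 48.2 CPM in vector. SLC22A10_OE overlapped vector (log2 fold change -0.0026, SE 0.09), and SLC22A15_OE rose (log2 fold change 0.45, SE 0.09, limma, Benjamini-Hochberg adjusted p = 0.00258). The 28 tested genes within 5 Mb of DBF4 had a median log2 fold change of 0.49 in SLC22A10_OE and 0.44 in SLC22A15_OE. For MCM7 that median was 0.09 and 0.13 over 123 genes, and for MCM4 0.18 and 0.03 over 11. Over all 50 members the regional medians centred on 0.03 in SLC22A10_OE. There 43 members lay below the median of their own region, and 42 lay below 0. The share of all genes below their own regional median was not counted. The part of a regional change in these results was not tested.

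At the replication fork 9 of 16 members fell in SLC22A10_OE, 1 rose and 6 did not pass; the median was -0.20. FEN1, the nuclease that trims Okazaki fragments, held 48.7, 53.2 and 49.3 CPM in SLC22A10_OE, 81.5, 80.9 and 82.2 CPM in SLC22A15_OE, and 71.5, 71.1 and 72.2 CPM in vector. The 3 groups did not overlap, with SLC22A10_OE lowest (log2 fold change -0.50, SE 0.05, limma, Benjamini-Hochberg adjusted p = 1.77e-06) and SLC22A15_OE highest (log2 fold change 0.19, SE 0.05, limma, Benjamini-Hochberg adjusted p = 0.0190). POLA2, the second subunit of the primase polymerase, followed the same order, with 38.9, 37.9 and 38.1 CPM in SLC22A10_OE, 67.0, 60.5 and 59.3 CPM in SLC22A15_OE, and 53.5, 52.3 and 53.1 CPM in vector (log2 fold change -0.46, SE 0.06, limma, Benjamini-Hochberg adjusted p = 1.25e-05, and 0.23 with adjusted p = 0.0121 in SLC22A15_OE). The SLC22A15_OE calls were lost for FEN1 without SLC22A15_OE library 2 or 3 or vector library 2 or 3 (adjusted p up to 0.0696), and for POLA2 without SLC22A15_OE library 1 (adjusted p = 0.0535). RFC3, a subunit of the loader of the sliding clamp, stood at 87.8, 87.0 and 85.7 CPM in SLC22A10_OE, 118, 125 and 119 CPM in SLC22A15_OE, and 109.6, 119 and 112 CPM in vector (log2 fold change -0.38, SE 0.05, limma, Benjamini-Hochberg adjusted p = 1.18e-05).

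Other subunits of the polymerases and the clamp loader are given by their log2 fold changes in SLC22A10_OE, and differences between subunits were not tested. POLA1, the catalytic subunit of polymerase alpha, fell by 0.44 in SLC22A10_OE, and PRIM1, the primase, did not pass (0.16). POLE, the catalytic subunit of polymerase epsilon, fell by 0.35 and its partner POLE2 did not pass (-0.13). POLD3 of polymerase delta fell by 0.24 and POLD1, its catalytic subunit, did not pass (-0.09). PCNA, the sliding clamp, fell by 0.32, RFC5 of the clamp loader by 0.18, and RFC4 did not pass (-0.15). The RFC5 call was lost without SLC22A10_OE library 3 or vector library 2 (limma, Benjamini-Hochberg adjusted p up to 0.0683). RPA coats single-stranded DNA. RPA3, its small subunit on chromosome 7, rose in SLC22A10_OE, with 42.6, 45.7 and 39.8 CPM in SLC22A10_OE, 28.1, 32.3 and 30.4 CPM in SLC22A15_OE, and 34.2, 33.5 and 35.7 CPM in vector (log2 fold change 0.30, SE 0.07, limma, Benjamini-Hochberg adjusted p = 0.00209). RPA2 fell by 0.23. RPA1, the large subunit, overlapped between SLC22A10_OE and vector, at 249, 255 and 252 CPM in SLC22A10_OE, 243, 246 and 239.7 CPM in SLC22A15_OE, and 239.5, 247 and 253 CPM in vector (log2 fold change 0.03, SE 0.04). RPA3 is also the 1 member that was lower in SLC22A15_OE than in SLC22A10_OE (log2 fold change -0.48, SE 0.07, limma, Benjamini-Hochberg adjusted p = 6.00e-05). The median of the genes within 5 Mb of RPA3 was -0.17 in SLC22A10_OE against vector, the opposite direction to RPA3 itself. In SLC22A15_OE against vector it was -0.17, beside -0.18 for RPA3, which did not pass. LIG1, the ligase that joins Okazaki fragments, did not pass in SLC22A10_OE (log2 fold change -0.04, SE 0.06). Which fork genes passed in SLC22A10_OE depended on the fit. With a fitted term for low mitochondrial ribosomal RNA, POLE2, POLD1 and RFC4 passed as lower and PRIM1 as higher. With centring, POLE2, RFC4 and LIG1 passed as lower.

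**Figure D5:**
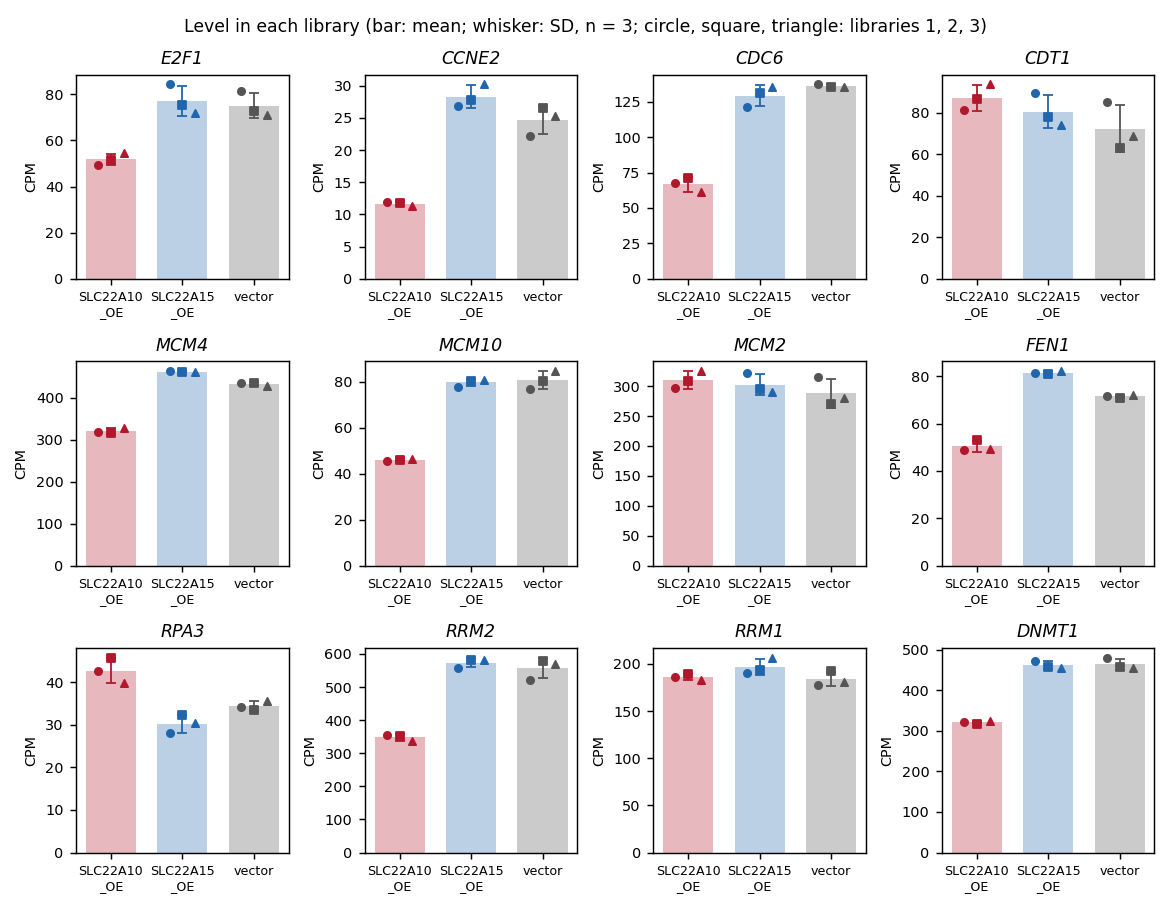
CPM of 12 members in each library (vertical axes from 0), with bars for means and whiskers for SD over 3 libraries of SLC22A10_OE, SLC22A15_OE and vector. Circles, squares and triangles are libraries 1, 2 and 3. CDC6, MCM10, RRM2 and DNMT1 are low in all 3 SLC22A10_OE libraries, while MCM2 and RRM1 overlap between SLC22A10_OE and vector, and CDT1 and RPA3 average higher in SLC22A10_OE.

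Of 4 genes that supply nucleotides, 3 fell in SLC22A10_OE. RRM2, the small subunit of ribonucleotide reductase, whose level rises in S phase, was the most abundant member, with 356, 351 and 337 CPM in SLC22A10_OE, 558, 581 and 581 CPM in SLC22A15_OE, and 523, 579 and 570.2 CPM in vector (log2 fold change -0.68, SE 0.05, limma, Benjamini-Hochberg adjusted p = 5.83e-08). RRM1, the large subunit, stood at 186, 189 and 183 CPM in SLC22A10_OE, 190.3, 193 and 206 CPM in SLC22A15_OE, and 178, 192 and 181 CPM in vector. It overlapped vector in SLC22A10_OE (log2 fold change 0.02, SE 0.05). Per kilobase of exon, RRM2 exceeded RRM1 by 1.63 times in SLC22A10_OE, 2.54 times in SLC22A15_OE and 2.64 times in vector. TYMS, which makes thymidylate, had 61.6, 63.0 and 62.2 CPM in SLC22A10_OE, 81.9, 83.7 and 79.3 CPM in SLC22A15_OE, and 74.2, 73.6 and 72.8 CPM in vector. It fell in SLC22A10_OE (log2 fold change -0.24, SE 0.05, limma, Benjamini-Hochberg adjusted p = 5.79e-04) and rose in SLC22A15_OE (0.15, limma, Benjamini-Hochberg adjusted p = 0.0378). The SLC22A15_OE call was lost with centring, in the fit of these 2 groups alone, and with a replicate block over all 9 libraries. It was also lost without SLC22A10_OE library 1 or 2, any SLC22A15_OE library, or vector library 2 or 3 (adjusted p up to 0.144). TK1, the thymidine kinase of dividing cells, read 77.0, 81.7 and 89.4 CPM in SLC22A10_OE, 122, 104 and 103 CPM in SLC22A15_OE, and 122, 98.0 and 106 CPM in vector (log2 fold change -0.39, SE 0.09, limma, Benjamini-Hochberg adjusted p = 0.00136).

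Of 6 genes that copy chromatin marks, assemble nucleosomes or remove uracil, 4 fell in SLC22A10_OE. DNMT1, which copies DNA methylation, held 323, 318 and 324 CPM in SLC22A10_OE, 473, 457 and 454 CPM in SLC22A15_OE, and 479.6, 457 and 456 CPM in vector (log2 fold change -0.53, SE 0.04, limma, Benjamini-Hochberg adjusted p = 1.23e-07). UHRF1, which brings DNMT1 to hemimethylated DNA, held 173, 175 and 184 CPM in SLC22A10_OE, 299, 278 and 276 CPM in SLC22A15_OE, and 302, 268 and 279 CPM in vector (log2 fold change -0.67, SE 0.05, limma, Benjamini-Hochberg adjusted p = 1.84e-07). Both overlapped vector in SLC22A15_OE, with log2 fold changes of -0.0089 and 0.0073. CHAF1A, the large subunit of the CAF-1 histone chaperone, fell in SLC22A10_OE with 94.7, 95.5 and 92.9 CPM in SLC22A10_OE, 128, 124 and 126 CPM in SLC22A15_OE, and 125, 116 and 116 CPM in vector (log2 fold change -0.33, SE 0.05, limma, Benjamini-Hochberg adjusted p = 3.57e-05). Its partner CHAF1B did not pass (-0.10), but it passed as lower with centring and with a fitted term for low mitochondrial ribosomal RNA. SLBP, which binds the end of histone mRNAs, fell by 0.37. UNG, a uracil glycosylase, was called higher in SLC22A10_OE with 63.3, 64.7 and 68.5 CPM in SLC22A10_OE, 64.0, 63.4 and 63.3 CPM in SLC22A15_OE, and 60.2, 60.5 and 60.2 CPM in vector (log2 fold change 0.12, SE 0.05, limma, Benjamini-Hochberg adjusted p = 0.0497), just inside the threshold. That call was lost with 16 of the 18 alternatives, edgeR and DESeq2 among them, and with centring its log2 fold change was -0.00331.

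The number of rises in SLC22A15_OE changed with how the libraries were matched. Libraries of SLC22A15_OE and vector with the same number deviated together from their group means (correlation over genes 0.194 to 0.566 in the 3 pairs). The highest value was that of both libraries 1, which have little mitochondrial ribosomal RNA. Among the other libraries, pairs with different numbers reached 0.164 and 0.349, so the numbers alone did not set libraries 2 and 3 apart. With the library number as a replicate block in a fit of these 2 groups, 23 members were higher, 2 lower and 25 did not pass, where 20.5% of all genes were higher and 20.2% lower. With a fitted term for low mitochondrial ribosomal RNA in the fit of all 9 libraries, 22 were higher and 2 lower, where 19.7% of all genes were higher and 18.8% lower. In the 6 libraries with more of that RNA, 17 were higher and 1 lower, where 16.1% of all genes were higher and 14.8% lower. MCM4, PCNA, CCNE2, CDC45, LIG1 and RRM1 were among the members gained both with that block and with that term. CCNE2 and RRM1 were not gained in the 6 libraries. Against vector they stood at 0.09, 0.24, 0.19, 0.15, 0.18 and 0.10 on the log2 scale, all under 0.25. The 2 members lower with the block and with the term were CCNE1 and RPA3. Without vector library 1 the count was 11 higher (13.2% of all genes), and without vector library 3 it was 3 (7.79%). The members' median within the libraries with little mitochondrial ribosomal RNA was 0.07, and 0.08 in the others.

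A list of 60 further genes of these pathways was counted the same way. In SLC22A10_OE against vector 27 fell, 11 rose and 22 did not pass, where 32.5% of all genes fell and 34.7% rose; the median was -0.11. CDC25A, the phosphatase that activates CDK2, fell to 19.0 ± 1.87 CPM in SLC22A10_OE, against 50.6 ± 1.49 CPM in vector (SD, n = 3 each, log2 fold change -1.37, SE 0.07, limma, Benjamini-Hochberg adjusted p = 3.89e-09). CLSPN, which encodes the checkpoint mediator claspin, fell to 79.0 ± 4.81 CPM, against 166 ± 11.7 CPM in vector (log2 fold change -1.06, SE 0.06, limma, Benjamini-Hochberg adjusted p = 1.16e-08). RBL2, which encodes the pocket protein p130 of resting cells, rose to 155 ± 6.62 CPM, against 91.2 ± 3.50 CPM in vector (log2 fold change 0.76, SE 0.05, limma, Benjamini-Hochberg adjusted p = 5.83e-08). TFDP2, a dimer partner of E2F factors, rose to 172 ± 3.57 CPM, against 109 ± 1.49 CPM in vector (log2 fold change 0.65, SE 0.04, limma, Benjamini-Hochberg adjusted p = 2.53e-08). In the group of retinoblastoma, dimer partner and other E2F genes 6 of 12 fell and 2 rose. Those that fell beside CDC25A, named after their values were seen, were RBL1 (-0.42), which encodes p107, TFDP1 (-0.51), E2F3 (-0.41), E2F4 (-0.55) and E2F7 (-0.75), while RB1 (-0.08) and CDK2 (-0.03) did not pass.

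In SLC22A15_OE against vector, 9 of the 60 rose and limma called 0 lower, with 7 lower at an unadjusted p under 0.05, 1 lower by edgeR and 3 by DESeq2, where 10.8% of all genes rose and 9.58% fell. Of the 9 that rose, 5 lie on chromosome 7 (RFC2) or 8 (RECQL4, MTBP, DSCC1 and ATAD2), which hold 9 of the 60, and 4 are among the 51 elsewhere. Over all genes tested, the median log2 fold change in SLC22A15_OE was 0.16 on chromosome 7, 0.18 on chromosome 8 and 4.93e-04 on the others. The part of these chromosomes in the rises was not tested. TIMELESS, which protects stalled forks, rose to 103 ± 0.472 CPM in SLC22A15_OE, against 73.7 ± 0.480 CPM in vector (SD, n = 3 each, log2 fold change 0.48, SE 0.04, limma, Benjamini-Hochberg adjusted p = 4.47e-06). RFC2 of the clamp loader, on chromosome 7, rose to 73.6 ± 2.12 CPM, against 51.6 ± 1.82 CPM in vector (log2 fold change 0.50, SE 0.05, limma, Benjamini-Hochberg adjusted p = 1.30e-05). TIMELESS and RFC2 were also called higher in SLC22A10_OE against vector. TIMELESS averaged 90.4 CPM there (log2 fold change 0.29, limma, Benjamini-Hochberg adjusted p = 5.92e-05). RFC2 averaged 60.7 CPM (log2 fold change 0.23, limma, Benjamini-Hochberg adjusted p = 0.00140). Between the lines, 33 of the 60 were higher and 5 lower in SLC22A15_OE than in SLC22A10_OE, where 30.8% of all genes were higher and 32.1% lower. CDC25A averaged 47.9 ± 1.68 CPM in SLC22A15_OE and 19.0 ± 1.87 CPM in SLC22A10_OE (log2 fold change 1.29, SE 0.07, limma, Benjamini-Hochberg adjusted p = 1.54e-08), and RBL2 99.7 ± 4.45 CPM in SLC22A15_OE and 155 ± 6.62 CPM in SLC22A10_OE (log2 fold change -0.63, SE 0.05, limma, Benjamini-Hochberg adjusted p = 5.06e-07). Among 20 genes of G2 and mitosis, the phases after S, 20 fell in SLC22A10_OE against vector, where 32.5% of all genes fell. Their median was -0.38. In SLC22A15_OE against vector 1 of them rose and 3 fell, with a median of -0.08, where 10.8% of all genes rose and 9.58% fell.

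In the authors' deposited tables, 35 members were lower and 2 higher in SLC22A10_OE at an FDR under 0.05, and 6 higher and 1 lower in SLC22A15_OE. The share of all genes called in those tables was not counted, so these numbers stand without a background. Between the lines, the largest difference of each step was in CCNE2, CDC6, MCM10, FEN1, RRM2 and UHRF1. CCNE2 was 1.21 higher on the log2 scale in SLC22A15_OE than in SLC22A10_OE, CDC6 0.94, MCM10 0.78, RRM2 0.72, FEN1 0.68 and UHRF1 0.68 (limma, Benjamini-Hochberg adjusted p from 5.37e-08 for CDC6 to 2.82e-07 for UHRF1). In each of these 6 genes all SLC22A15_OE libraries lay above all SLC22A10_OE libraries. All 5 G1/S regulators were higher in SLC22A15_OE, with a median of 0.57, where 30.8% of all genes tested were higher. So were 4 of 5 licensing genes (0.54), 12 of 14 helicase and firing genes (0.46) and 11 of 16 fork genes (0.29). The same held for 3 of 4 nucleotide supply genes (0.39) and 5 of 6 chromatin and uracil genes (0.40).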

How the data were processed

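The authors deposited CPM per gene for 9 libraries and, per comparison with vector, a table whose log2 fold change, mean log2 CPM, p-value and FDR columns are named per the file headers. The submitters' processing notes name edgeR and the builds hg38 and mm9, with no role. Aligner, counter and annotation: not given in the sources used here. Columns carry numbers 1 to 3 that could not be matched to the titles' A1, A2 and B1, so libraries are named by group and number. Whole reads were recovered from the CPM steps, all of them (100.0%) less than 0.1 read from whole, and a gene at 1 CPM held 27.8 to 43.4 reads (counting SD 15.2% to 19.0%).

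limma (3.58.1, R 4.3.3) was run on log2(CPM + 1), all 9 libraries in 1 fit with a mean trend, 6 residual degrees of freedom and no covariate, two-sided, with Benjamini-Hochberg adjustment over 14554 genes. A fold change on this scale understates changes of low genes. The members, steps and lists were chosen with earlier results of these data known. Library values are given, per step and comparison, for the 3 called members with the smallest adjusted p, for those against the step's majority, and otherwise for the most abundant. Of the 60 further genes, up to 2 per direction and comparison were named. Alternatives were another pseudocount (0.25), no filter, edgeR (4.0.16) and DESeq2 (1.42.0) on recovered reads, centring, a replicate block, a term for mitochondrial ribosomal RNA, 2-group fits and leaving out each library. The procedure was also run on simulated counts with a single setting of the spread, where few genes changed and only in SLC22A10_OE. That run does not cover changes as widespread as those found here. Library numbers were taken to pair SLC22A15_OE with vector because each correlation given above was over 0.1, though pairs with different numbers reached 0.349, and paired neither with SLC22A10_OE (lowest -0.41). Exon lengths came from GENCODE 29 through Entrez numbers, and chromosomes from a RefSeq table (GRCh38.p14).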

Additional observations from a re-analysis of the deposited data

How the results depend on the processing

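Members lower in SLC22A10_OE numbered 33 to 40 of 50 under the alternatives run, where 29.3% to 42.8% of all genes were lower. The count of 40 came with centring (42.8% of all genes) and with the mitochondrial ribosomal RNA term (37.6%). Without the members on chromosomes 7 and 8, 31 of 44 were lower, beside 32.5% of all genes on any chromosome. The share of all genes off those 2 chromosomes is not given here. Members lower numbered 35 by edgeR (32.9% of all genes) and 35 by DESeq2 (33.0%). Members higher in SLC22A10_OE numbered 1 with centring (26.6% of all genes) and 5 with the mitochondrial ribosomal RNA term (39.1%). With a library left out they numbered 1 to 3 (31.9% to 35.3%), and 1 without SLC22A10_OE library 2 or 3 or vector library 2 or 3. The median was -0.44 with centring and -0.34 to -0.31 with a library left out. In SLC22A15_OE against vector, members higher numbered 22 with the term (19.7% of all genes). They numbered 17 in the 6 libraries without low mitochondrial ribosomal RNA (16.1%), and 23 with the replicate block in those 2 groups (20.5%). With a library left out they numbered 3 to 11 (7.79% to 13.2%). Members lower numbered 2 with the term (18.8% of all genes) and 2 with that block (20.2%). With the replicate block over all 9 libraries 0 were lower (8.93%) and 6 higher (10.2%). In the fit of the 2 groups 0 were lower (8.38%), and with a library left out 0 to 1 (6.46% to 11%). The median was 0.053 with centring and 0.069 to 0.088 with a library left out. Between the lines the members lower numbered 2 with the term (37.1% of all genes) and 2 in the 6 libraries (34.5%). They numbered 0 without the members on chromosomes 7 and 8, beside 32.1% of all genes on any chromosome. The median was 0.53 with centring, 0.40 without those members and 0.42 to 0.44 with a library left out. The 2-group block and the 6-library fit were chosen after the data were seen. The replicate block over 9 libraries lost CCNE1 and TYMS and gained PCNA in SLC22A15_OE, and lost UNG and gained RFC4 in SLC22A10_OE.

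The following values near 0 changed sign, and none passed where it did. With centring, UNG was -0.00331 in SLC22A10_OE and UHRF1 -0.0185 in SLC22A15_OE. With a library left out, values in SLC22A15_OE against vector ran from -0.0245 to 0.0983 for E2F1, -0.00398 to 0.0703 for RRM2, -0.0266 to 0.0149 for DNMT1 and -0.0306 to 0.0548 for UHRF1. The cause of these shifts was not tested. The fewest reads of a member in a library were 314, so counting error limits the least abundant members most.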
